A study of Caenorhabditis elegans with 4 samples.

Results

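The regions described are the MDL-1::GFP peaks of chromosome III, all rows of the deposited peak list whose chromosome is III. They number 1704 of 9533 peaks (17.9%), and chromosomes I, II, IV and V, the other autosomes, hold 6751. The peaks come from chromatin immunoprecipitation with sequencing (ChIP-seq) in C. elegans hermaphrodites at the fed L1 stage, the first larval stage, grown at 20 °C. All larvae were of strain OP106, which carries the unc-119(ed3) mutation on chromosome III and the integrated transgene wgIs106, with mdl-1 fused to TY1, EGFP and FLAG tags and a functional unc-119 copy. The transgene was introduced by biolistic transformation, and all 4 libraries, input included, came from this strain, so no strain without the tag served as a control. The 2 groups, immunoprecipitates made with goat anti-GFP antibody and input DNA, had 2 replicates each, from whole larvae in which all cell types are mixed. Since the list is a combined one without values for single libraries, replicate error and depth are unknown for all results.

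MDL-1 belongs to the Mad family of basic helix-loop-helix leucine zipper proteins. Such proteins pair with a Max-like partner, MXL-1 in the worm, bind short E-box sequences in DNA and are mostly known as repressors of transcription. The autosomes of C. elegans have a central part that is rich in genes and recombines little, and 2 arms that are richer in repeats and recombine more. The centre of chromosome III was taken from 3.72 to 10.34 Mb, with the left arm before it and the right arm after it, and each peak was placed by its midpoint. Positions are in WormBase WS180, the build named in the file header. No gene annotation or genome of that build was used, so peaks are given by position and not by gene, and no peak sequence is shown.

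Peaks on chromosome III were dense and spread along its whole length. From the first peak, which starts at base 14754, to the last, which ends at base 13771423, there were 124 peaks per Mb (95% exact Poisson interval 118 to 130). The other 4 autosomes together had 98.3 per Mb (96.0 to 101). The ratio was 1.26 (95% exact conditional binomial interval 1.19 to 1.33), and against single autosomes it ran from 1.08 for II (1.01 to 1.15) over 1.22 for I and 1.33 for IV to 1.40 for V. Peaks covered 3.84% of the span of chromosome III and 2.99% to 3.54% of the spans of the other autosomes. All intervals hold for counting error alone, as if peaks were independent. Counts per 500 kb window varied more than independent peaks would, with a variance to mean ratio of 3.11 on chromosome III, so the intervals are too narrow. One chromosome against 4 cannot give a p-value below 0.20 in an exact test over chromosomes. No test was therefore made, and the values of chromosome III are set beside those of the others as a description.

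The excess of chromosome III over the pool of the other 4 autosomes was present at all strengths and highest among strong peaks. Strength is -log10 of the q-value that the authors deposited for each peak, and the peaks of the whole list were cut into 4 classes with equal numbers. In the weakest class, with strengths up to 2.96, chromosome III had 30.2 peaks per Mb and the other autosomes 25.5, a ratio of 1.18 (1.06 to 1.32). The ratios of the next classes were 1.20 (1.07 to 1.34) and 1.23 (1.10 to 1.37). In the strongest class, with strengths above 11.1, the densities were 33.9 and 23.6 per Mb, a ratio of 1.44 (1.30 to 1.60). In the strongest 10% of the list, above 24.1, the ratio was 1.57 (1.33 to 1.84), with 196 peaks on chromosome III. The pool hides that II was closer to III than the others were. In this strongest 10%, III had 14.2 peaks per Mb (12.3 to 16.4) and II 12.1 (10.4 to 13.99), with intervals that overlap. I, IV and V had 8.23, 9.003 and 7.56 per Mb. Below a strength of 3, the density intervals of II (26.3 to 31.8) and III (28.2 to 34.1) overlap too. Densities in the 4 classes were not computed for single autosomes. Of the 81 peaks of the list with a strength above 100, chromosome III held 21 (25.9%), or 1.53 per Mb (0.945 to 2.33) against 0.699 on the other autosomes. Singly these had 0.332 on I (0.108 to 0.775), 0.917 on II (0.501 to 1.54), 0.631 on IV (0.315 to 1.13) and 0.861 on V (0.510 to 1.36). The interval of III overlaps all of them but that of I. Chromosome III held 27 of the 100 peaks placed highest in the list. The intervals of the 4 classes overlap in part, and the difference between their ratios was not tested. By width, the ratio to the other autosomes together was 1.43 (1.30 to 1.57) for peaks under 200 bp and 1.25 (1.16 to 1.35) from 200 to under 400 bp. It was 1.06 (0.93 to 1.20) from 400 to under 800 bp and 1.18 (0.90 to 1.53) for wider ones. Under 200 bp, II had about the density of III, 40.2 per Mb (37.1 to 43.5) against 40.5 (37.2 to 44.0). On I, IV and V it was 24.0, 25.9 and 25.0 per Mb.

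The profile along chromosome III rose near the boundary of the left arm and fell little towards the right end. The left arm held 378 peaks, or 102 per Mb (92.0 to 113), the centre 913, or 138 per Mb (129 to 147), and the right arm 413, or 120.4 per Mb (109 to 133). The density of the centre was 1.24 times that of both arms together (1.13 to 1.37), 1.35 times that of the left arm (1.20 to 1.53) and 1.15 times that of the right arm (1.02 to 1.29). With the other autosomes divided at the same fractions of their spans, 26.9% and 75.1%, the ratio of centre to both arms was 1.14 on IV, 1.20 on I, 1.35 on II and 1.55 on V. Chromosome III thus lay in the middle of that order.

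**Figure D1:**
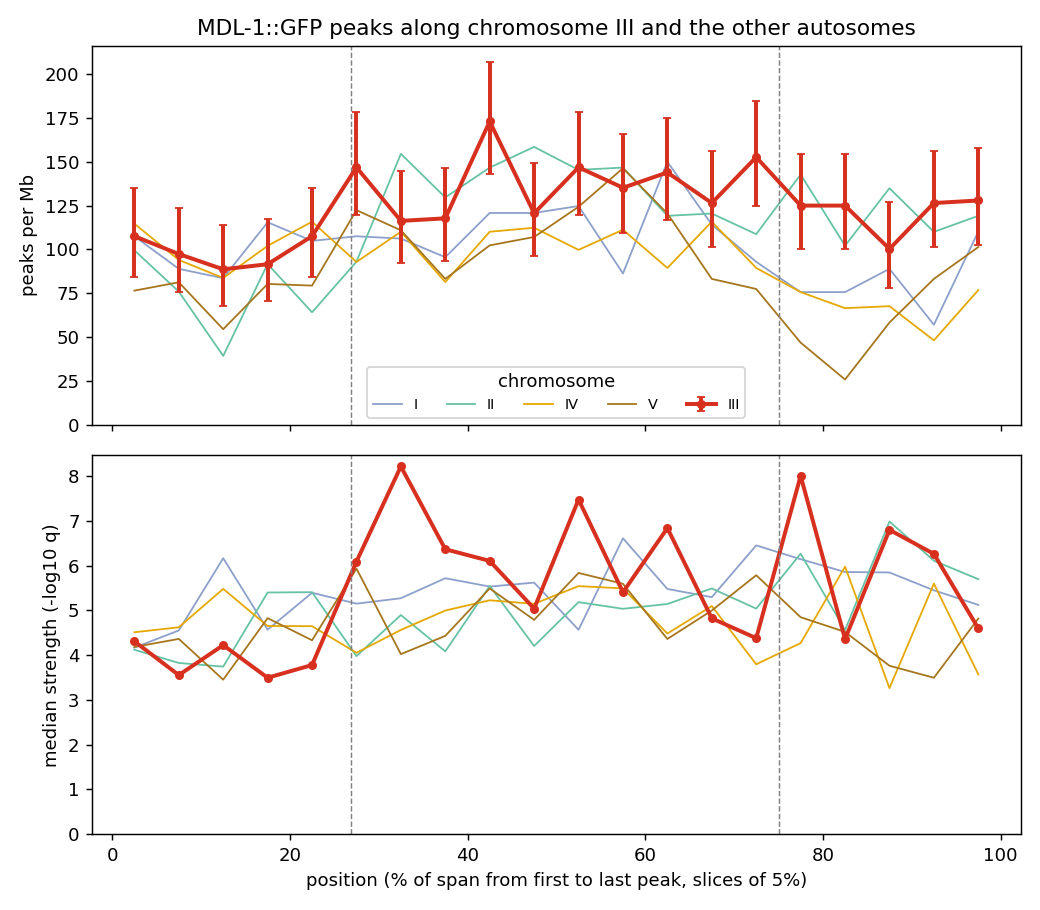
Peaks per Mb (upper panel) and median strength, -log10 of the deposited q-value (lower panel), in slices of 5% of the span from first to last peak of each autosome; chromosome III is drawn in red with 95% exact Poisson intervals on density, and dashed lines mark the ends of its arms. Chromosome III has between 88.7 and 173 peaks per Mb, and its median strength steps up at the end of the left arm.

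In slices of 5% of the span, chromosome III had from 88.7 to 173 peaks per Mb. The lowest slices of I, II, IV and V had 57.1, 39.3, 48.2 and 25.8 peaks per Mb. Chromosome III was the densest of the 5 autosomes in 10 of the 20 slices, the sparsest in none, and above the median of the other 4 in 19. Its peak slice, from 40% to 45% of the span, held 119 peaks.

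Both arms of chromosome III were well filled, and the right arm kept most of the central density. The right arms of I, IV and V had 81.7, 67.1 and 63.3 peaks per Mb, against 120.4 on III and 122 on II. The left arm of III, at 102 per Mb, had a density like those of I (102) and IV (105), above II (77.1) and V (75.6).

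**Figure D2:**
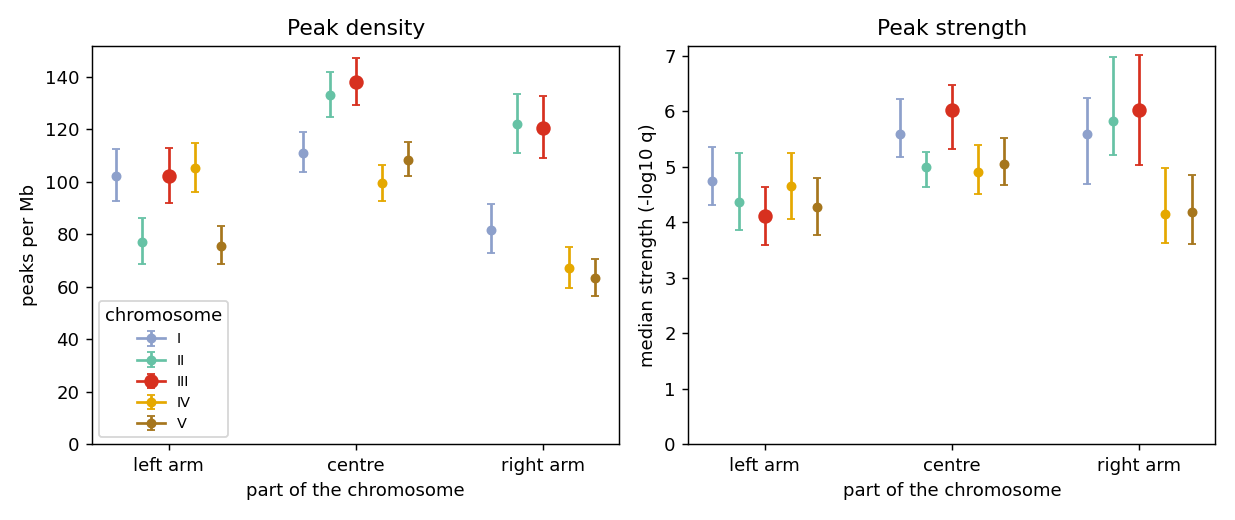
Peaks per Mb with 95% exact Poisson intervals (left panel) and median strength with 95% order-statistic intervals (right panel) for the left arm, centre and right arm of the 5 autosomes, chromosome III in red. Its centre has 138 peaks per Mb, and its left arm has a median strength of 4.11 where its centre and right arm are near 6.

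The peaks of the left arm were weaker than those of the centre and the right arm. The median strength was 4.11 in the left arm (95% order-statistic interval 3.59 to 4.64), 6.03 in the centre (5.32 to 6.48) and 6.01 in the right arm (5.03 to 7.01). The intervals of the centre and the right arm overlap, and that of the left arm is below both. The quartiles were 2.74 and 9.69 in the left arm, 3.24 and 13.1 in the centre, and 3.21 and 13.0 in the right arm. Peaks with a strength below 3 made up 34.1% of the left arm, 22.0% of the centre and 23.5% of the right arm. Those above 10 made up 23.0%, 32.2% and 32.7%. On the other autosomes the median of the left arm was also below that of the centre, by 0.83 on I, 0.62 on II, 0.26 on IV and 0.77 on V, against 1.91 on III. The right arms of II, at 5.82 (5.21 to 6.98), and I, at 5.59 (4.70 to 6.24), had intervals that overlap that of III. Those of IV (4.16, 3.63 to 4.97) and V (4.19, 3.61 to 4.85) were weaker.

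In fixed windows of 500 kb the change in strength fell near 3.5 Mb. The 6 windows from 0.5 to 3.5 Mb held from 41 to 57 peaks each, with median strengths between 3.35 and 4.80. The window from 3.5 to 4.0 Mb held 80 peaks with a median strength of 6.33, and the 4 windows after it had medians from 6.20 to 7.98. Farther right no such level held. The windows that start at 6.0, 7.5, 9.0 and 9.5 Mb had medians of 4.33, 4.20, 4.71 and 4.35, and those that start at 7.0 and 10.5 Mb had the highest, 8.79 and 8.28. A full window therefore could be crowded and weak. The window from 9.5 to 10 Mb held 92 peaks with a median of 4.35, and that from 5.5 to 6 Mb held 93 with a median of 7.30. Across the 26 full windows, which share 1 library set and chromosome, Spearman's rho of peak number and median strength was 0.34, and across the 136 full windows of 100 kb it was 0.10.

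The lowest full 500 kb window of chromosome III held more peaks than the lowest of each other autosome. The lowest count of III was 41, in the window from 2.0 to 2.5 Mb, with a median of 60 and a highest count of 93. The lowest counts of I, II, IV and V were 21, 21, 22 and 7. On the other autosomes 39 of 131 such windows (29.8%) were below 41, namely 7 of 29 on I, 5 of 29 on II, 10 of 33 on IV and 17 of 40 on V. Since 41 is the lowest count of III itself, no window of III could be below it. Counts were 61.8 ± 13.9 (SD, n = 26 windows) on III, a coefficient of variation of 22.4%, where the other autosomes ran from 25.7% on IV to 40.8% on V. In windows of 100 kb the coefficient was 40.6% on III and from 46.9% to 64.7% on the others. This coefficient falls as the mean count rises, and III had the highest mean of the 5 autosomes. The variance to mean ratio was about the same on IV as on III, 3.03 against 3.11 in windows of 500 kb and 2.03 against 2.02 in windows of 100 kb. On I, II and V it was higher, from 4.29 to 7.29 and from 2.54 to 3.70.

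**Figure D3:**
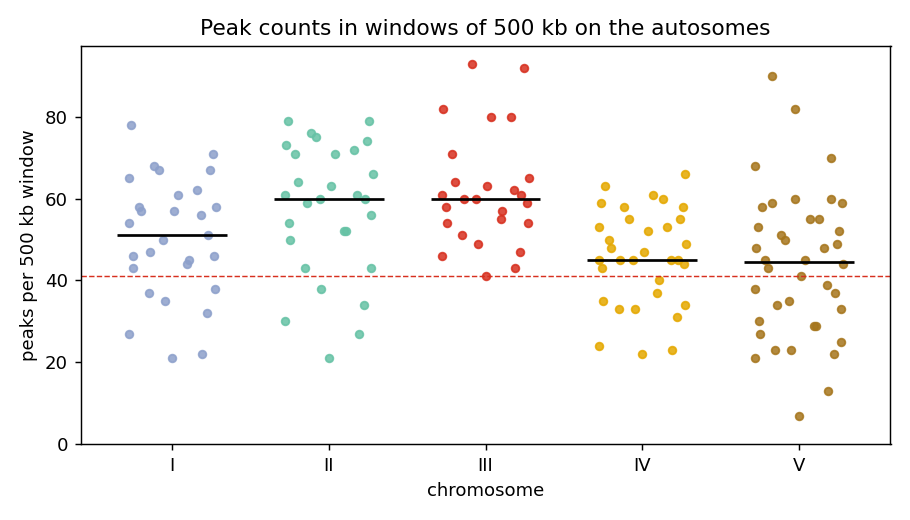
Number of peaks in each full 500 kb window of the 5 autosomes, with 1 point per window, a black line at the median of each chromosome and a dashed red line at 41, the lowest window of chromosome III. The points of chromosome III lie from 41 to 93, and each other autosome has windows below the dashed line.

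At finer scale, the densest 100 kb windows lay in the centre and the sparsest were found in all parts. The densest held 27 peaks, from 7.7 to 7.8 Mb, with a median strength of only 3.36, and 22 of the 27 had a neighbour within 1 kb. The next held 26 peaks, from 6.1 to 6.2 Mb, with a median strength of 3.97, and 25 peaks, from 5.9 to 6.0 Mb, with a median of 5.19. Next were 3 windows with 23 peaks each. Those from 5.8 to 5.9 Mb and from 8.7 to 8.8 Mb had higher medians, 8.93 and 14.9, and 14 of the 23 peaks in the latter had a strength above 10. That from 9.8 to 9.9 Mb had a median of 4.97, with 6 peaks above 10. Windows with more than 20 peaks numbered 8 of 66 in the centre, 0 of 36 in the left arm and 1 of 34 in the right arm. The 5 sparsest windows had 4 peaks each and began at 1.3 and 2.2 Mb in the left arm, at 4.8 Mb in the centre, and at 12.1 and 12.7 Mb in the right arm. The sparse window at 4.8 Mb had a peak of strength 109, and the strongest peaks of the other 4 reached only from 3.98 to 9.62. The fullest 100 kb windows of I, II, IV and V held 25, 34, 22 and 36 peaks, so II and V had denser ones than III.

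The longest stretches without a peak were short. The longest was 69889 bp, from 1279541 to 1349429 in the left arm. The next 4 were 67335 bp from 12714044 to 12781378, 66308 bp from 2214348 to 2280655, 66276 bp from 671398 to 737673, and 66063 bp from 7387651 to 7453713. The longest stretches on I, II, IV and V were 124726, 135876, 182736 and 280483 bp. Gaps over 50 kb numbered 10 of 1703 on III. They numbered 31 of 1526 on I, 28 of 1757 on II, 46 of 1619 on IV and 62 of 1845 on V. Chromosome III has the shortest span, 13.8 Mb against 15.1 to 20.9 Mb, and more peaks per Mb also leave fewer long gaps.

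The 10 strongest peaks of chromosome III were mostly central, and several were narrow for their strength. The strongest lay at chrIII:4649204-4649865, spanned 662 bp and held place 3 in the whole list, with a q-value in the authors' deposited table of 2.72e-211 (strength 211). The second, chrIII:4280282-4282856, was 2575 bp wide with a strength of 179. The third, chrIII:9618730-9619830, was 1101 bp wide with a strength of 171. These 3 lay in the centre, each with a neighbour at a gap of at most 325 bp.

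The fourth was a neighbour of the last of the 10, chrIII:8801299-8802565 having a strength of 165 and chrIII:8799745-8800911 a strength of 113, with 387 bp between them. The fifth, chrIII:9051206-9054240, was the widest peak of the chromosome at 3035 bp and had a strength of 149. The sixth was the strongest of the right arm, chrIII:10758930-10759485, with a strength of 141 over only 556 bp. The seventh was the strongest of the left arm, chrIII:1924859-1925720, with a strength of 138 over 862 bp. The eighth and ninth were chrIII:3801202-3801904 (703 bp, strength 133) and chrIII:8657580-8658745 (1166 bp, strength 121), both in the centre. The eighth was the only one of the 10 with no neighbour within 1 kb.

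Of the 21 peaks above a strength of 100, 15 were in the centre and 3 in each arm, which is 2.27 per Mb in the centre (1.27 to 3.74), 0.810 in the left arm (0.167 to 2.37) and 0.874 in the right arm (0.180 to 2.55). These intervals overlap. The width of the 21 ran from 480 to 3035 bp with a median of 1073 bp, and 9 were narrower than 1000 bp. On the other autosomes 9 of 48 such peaks were narrower than 1000 bp, with a median width of 1810 bp. A neighbour within 1 kb was found for 16 of the 21.

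Of the 3 strong peaks of the left arm, 2 lay close together, a place named here after its values were seen. The peak at chrIII:1920965-1921807 had a strength of 105 and lay 1497 bp from a group of 3 peaks whose strengths were 72.8, 138 and 60.1, from 1923305 to 1927076. The third, chrIII:2171462-2172534, had a strength of 109.

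Peaks of chromosome III were narrow compared with those of most autosomes. The median width was 260 bp (95% order-statistic interval 250 to 269), with quartiles of 168 and 371 bp. Only II was narrower, at 251.5 bp (245 to 260), while V (278 bp), IV (284.5 bp) and I (294 bp) were wider. Peaks under 200 bp made up 32.7% of those on III (95% exact binomial interval 30.5 to 35.0), 34.9% on II, and 23.6% to 28.3% on I, IV and V. The narrower widths of III and II were seen at like strength as well. In the second strength class the medians were 200 bp on III and 199.5 bp on II, against 230 bp on V, 231 bp on IV and 236 bp on I. In the strongest class they were 441 bp on III, 436 bp on II, and 463 to 476.5 bp on the others.

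Within chromosome III the left arm had the narrowest peaks, with a median of 227.5 bp (200 to 253), against 267 bp in the centre (253 to 281) and 266 bp in the right arm (249 to 284). Width and strength rose together, with a Spearman's rho of 0.85 across the 1704 peaks, which are not independent replicates, so the weaker left arm and its narrower peaks are not separate observations. At like strength the order differed between classes. In the weakest class the medians were 95 bp in the left arm, 98 bp in the right arm and 136 bp in the centre. In the second class they were 196, 188 and 208 bp, and in the third 307.5 bp in both arms and 289 bp in the centre. In the strongest class the left arm was again the narrowest, at 406 bp, against 450 bp in the right arm and 445 bp in the centre. Peaks under 50 bp were more frequent in both arms, at 11.9% in the left (8.82 to 15.6) and 9.69% in the right (7.01 to 13.0), than in the centre, at 4.71% (3.43 to 6.29). The interval of the centre lies below those of both arms. On the other autosomes, too, the arms together had the higher share. It was 6.79% against 3.85% in the centre on I, 9.22% against 7.78% on II, 8.02% against 3.48% on IV and 8.20% against 3.94% on V.

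**Figure D4:**
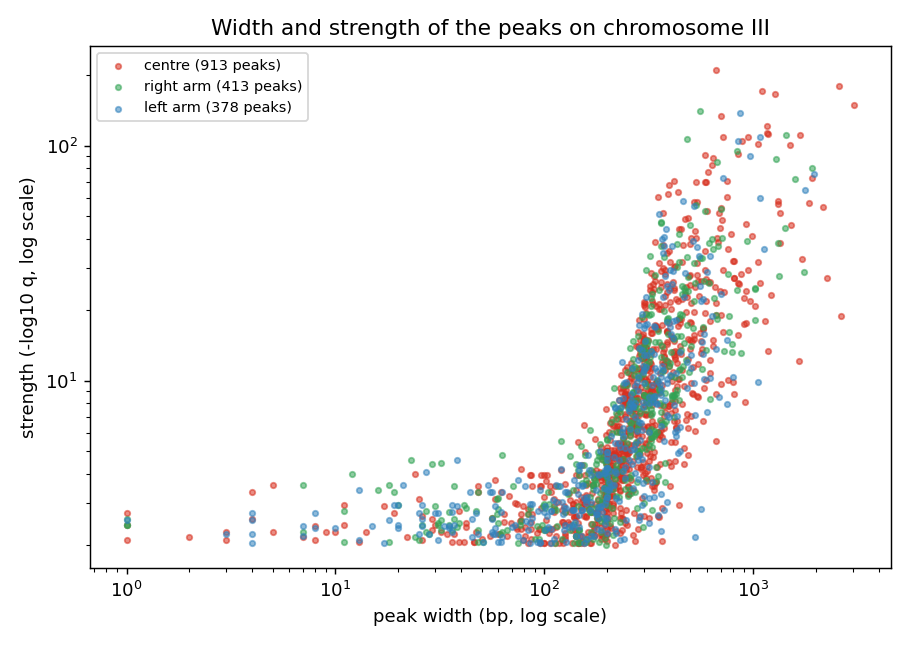
Width (bp, log scale) against strength, -log10 of the deposited q-value (log scale), for each of the 1704 peaks of chromosome III, coloured by left arm, centre and right arm. Peaks under 50 bp stay at strengths of at most 4.57, and strength climbs steeply with width above about 200 bp.

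Wide peaks were mostly strong, but the widest were not all among the strongest. Of the 45 peaks over 1000 bp, 28 were in the centre, 11 in the right arm and 6 in the left arm, with a median strength of 54.9 and a lowest of 9.87. As shares of the peaks of each part, the intervals overlap. They were 3.07% in the centre (2.05 to 4.40), 2.66% in the right arm (1.34 to 4.72) and 1.59% in the left arm (0.585 to 3.42). The share on III was 2.64%, and on the other autosomes it ran from 1.82% on II to 3.03% on V. Among the 5 widest, chrIII:9051206-9054240 and chrIII:4280282-4282856 were also among the 10 strongest. The others ranked lower among the 1704 peaks of the chromosome. The peak at chrIII:8443599-8446229, 2631 bp wide, had a strength of 18.9 and ranked 256 on the chromosome. That at chrIII:5874255-5876499, 2245 bp wide, reached 27.3 and ranked 157, and that at chrIII:8652754-8654910, 2157 bp wide, reached 54.9 and ranked 56. At the other end, 128 peaks were narrower than 50 bp, with a median strength of 2.43 and a highest of 4.57. Of these, 7 covered a single base, of 21 such peaks in the whole list, with strengths from 2.10 to 2.74. The strongest single-base peaks lay at bases 6641205, 13485592 and 803576.

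Neighbours within 1 kb were frequent, above all in the centre. Of the 1704 peaks 660 (38.7%, 95% exact binomial interval 36.4 to 41.1) had one, against 33.3% on I, 34.6% on V, 34.7% on IV and 36.2% on II. In the centre the share was 43.6% (40.4 to 46.9), in the left arm 30.95% (26.3 to 35.9) and in the right arm 35.1% (30.5 to 39.9). The interval of the centre lies above those of both arms, and more peaks per Mb also bring more close neighbours. The centres of the other autosomes were likewise above their arms together. The shares were 36.3% against 30.1% on I, 39.3% against 32.4% on II, 37.6% against 31.6% on IV and 39.7% against 27.1% on V. The median gap between neighbouring peaks was 3965 bp on III, with quartiles of 1114 and 10516 bp, and the smallest was 201 bp. The median gap was 3416 bp in the centre, 4088 bp in the right arm and 5127 bp in the left arm. Gaps under 500 bp were 10.5% of those on III and 9.1% on the other autosomes, and gaps of 32 kb or more were 3.7% and 6.6%.

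Peaks with a close neighbour were the stronger ones in each part of the chromosome, with a small margin in the right arm. Their median strength on III was 6.50, against 4.997 for the 1044 without one. The margin was 1.42 in the left arm (5.18 against 3.76), 1.47 in the centre (6.84 against 5.36) and 0.31 in the right arm (6.07 against 5.77). On the other autosomes it ran from 0.02 on I to 1.55 on V. Members of a close pair were only loosely alike, with a Spearman's rho of 0.11 between the strengths of the 394 neighbouring pairs on III, and both had a strength above 10 in 69 pairs (17.5%). The pair with the highest weaker member was the pair near 8.80 Mb described above, at 113 and 165. The next was in the right arm, chrIII:12612288-12613721 and chrIII:12614025-12615927, with strengths of 110.5 and 80.2 at a gap of 303 bp.

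Joined at gaps of at most 1 kb, the peaks of chromosome III formed 1310 regions, of which 1044 were single peaks, 188 pairs, 49 groups of 3 and 29 groups of 4 or more. The 29 larger groups held 137 peaks (8.04%), and 19 of them lay in the centre, 7 in the right arm and 3 in the left arm. They numbered 2.11 per Mb on III, against 0.929 on I, 1.03 on IV, 1.72 on V and 1.90 on II. As a share of peaks the order was another, with 9.59% on V and 8.13% on II above the 8.04% of III, and 5.19% on IV and 4.45% on I. The largest group had 12 members on III and also on V, 10 on II, and 6 on I and on IV.

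The group with most members, 12 peaks over 8834 bp at chrIII:7722539-7731372, was made of weak peaks around a single stronger place. Its strengths from left to right were 2.93, 6.43, 4.48, 3.29, 2.26, 2.86, 2.74, 3.15, 12.8, 29.5, 4.26 and 5.42. Only the adjacent members at 12.8 and 29.5 exceeded 10, and 4 of the 12 were under 3. The members were from 3 to 944 bp wide, and the strongest was also the widest. A group of 5 peaks ended 1358 bp before it, at chrIII:7718307-7721180, with a highest strength of 23.8, so 17 peaks lay within 13066 bp. After it the next peak, a single base, lay 7155 bp away, and the next after that 27336 bp away.

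The second group, 9 peaks over 8930 bp at chrIII:5835155-5844084, was built differently. Its strengths from left to right were 19.0, 32.8, 21.4, 22.4, 2.59, 2.25, 57.4, 4.99 and 17.6. Strong members stood on both sides of 2 weak ones, and 6 of the 9 exceeded 10. Peaks covered 61.6% of its extent, against 39.3% in the group of 12.

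The third group, 6 peaks over 5666 bp at chrIII:10815931-10821596 in the right arm, was the most even of the 3. Its strengths were 8.12, 11.2, 10.9, 16.1, 15.4 and 6.48, lowest at both ends. Next in number of members were 6 groups of 5 peaks, all in the centre. The longest of these, at chrIII:8982082-8987280 and chrIII:7296001-7301062, had highest strengths of 56.6 and 31.9. Whether close peaks are separate binding sites or pieces of 1 enriched region cannot be told from the list.

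**Figure D5:**
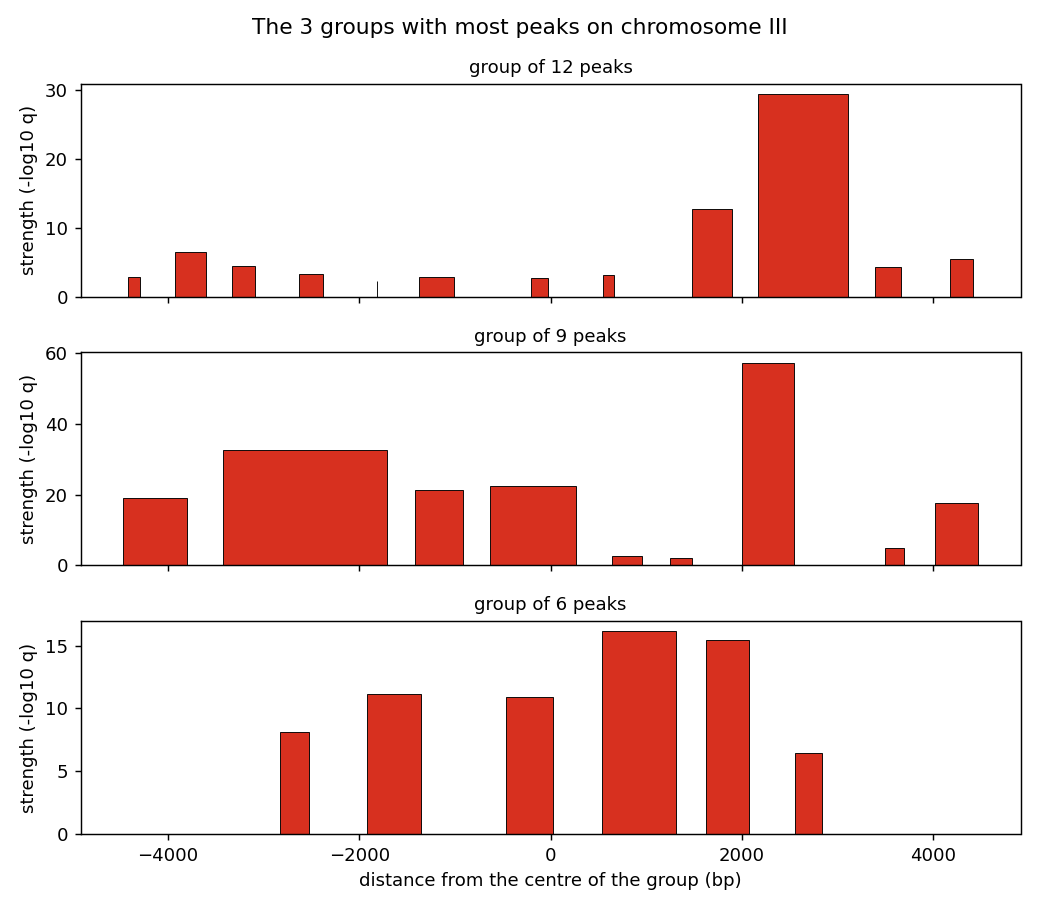
Members of the 3 groups with most peaks on chromosome III, as bars at their distance from the centre of the group (bp) with their width to scale and their strength, -log10 of the deposited q-value, as height. The group of 12 has a single strong place at 29.5, the group of 9 has 6 members above 10, and the group of 6 runs from 6.48 to 16.1.

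Peaks far from any other were few. On III, 26 peaks (1.53%) were more than 20 kb from the nearest peak on either side, 9 in the left arm, 11 in the centre and 6 in the right arm. Their median strength was 4.90 and their median width 231.5 bp. On the other autosomes 172 peaks (2.55%) were so far from any other, and more peaks per Mb, as on III, also leave fewer such peaks.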

How the data were processed

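ChIP and input libraries (2 replicates each) gave 1 peak list. Peaks were called with PeakSeq in WormBase WS180 coordinates, per the file headers. How reads were aligned, which PeakSeq version was run and how replicates were joined is not given in the sources used here. For every peak the authors deposited a q-value, always below 0.01. Read counts were not used, so depth is unknown.

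Strength is -log10 of that q-value, and width is last minus first base plus 1. A gap counts the bases between 2 peaks. Densities use the span from first to last peak. Windows start at base 1, and only those wholly inside the span count as full. Intervals are 95% exact Poisson (densities), exact binomial (shares), exact conditional binomial (ratios) and order-statistic (medians). For a difference of 2 medians, a range from the opposite ends of their intervals is given, which is not a 95% interval of the difference. Single peaks are not replicates, so no hypothesis test was made. The interval of a density ratio and the search for neighbours were tested on simulated peak lists, and the other functions were not.

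The positions named are the 10 strongest, 5 widest and 3 narrowest peaks, the 5 largest groups, the 5 densest (with a tie, 6) and 5 sparsest 100 kb windows and the 5 longest gaps. Of 6 groups with 5 members, the 2 with the longest extent were taken. The other peaks and groups with positions were chosen after their values were seen. The members and comparisons were chosen with earlier results of these data known. The planned count of genes near peaks was not run, since WBcel235, the assembly of the available gene table, is not the build of the peaks. The software was scipy 1.17.1, pandas 2.3.3, numpy 2.4.6 and matplotlib 3.10.9 under Python 3.11.15.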

Additional observations from a re-analysis of the deposited data

How the results depend on the processing

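Of the 27 alternatives run on 6 results, 16 gave a value inside the interval or range of the value reported, and 11 gave one outside it. No ratio changed side of 1 and no difference changed side of 0. The share with a neighbour and the median width are always above 0, so for them no reversal was possible. With only the peaks above the median strength of the list, the density of III relative to the other autosomes was 1.33, the centre to arm ratio 1.40, the share with a neighbour within 1 kb 27.4% and the median width 360 bp. Fewer and stronger peaks enter there, and stronger peaks are wider. With peaks within 500 bases merged, the share with a neighbour was 25.8%. It was 18.9% for gaps of at most 500 bases and 57.2% for gaps of at most 2 kb, as the definition itself widens. In bases covered, III stood at 1.18 times the other autosomes. Without peaks narrower than 50 bases the median width was 275 bp. With strength replaced by each peak's percentile in the list order, the centre of III lay 7.99 above its arms (-1.78 to 14.3) and the left arm differed from the rest by -14.4 (-22.9 to -6.02), both on another scale than strength. The centre minus arms difference in strength, 1.21 (-0.27 to 2.10), also has an interval that spans 0. The left arm was -1.91 in strength against the rest of III, and -1.38 to -2.05 in the 5 alternatives on that scale. With only the peaks above the median strength its range spans 0 (-3.30 to 0.82), and in the other 4 the range stays below 0. All alternatives for the left arm were chosen after seeing the data. No paired analysis was possible because the list holds no value per library, and no replicate could be left out for the same reason. The alternative for gene distances was not run. Depth is unknown, so weaker sites below the threshold cannot be counted.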

Other observations

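In full 1 Mb windows, the log2 width of peaks on III, after the mean of peaks of like strength in 20 classes was taken off, lay between -0.54 and -0.03 (12 windows), and on II between -0.48 and 0.00 (14 windows). On I, IV and V it ran from -0.42 to 0.37, with 14, 16 and 19 windows. The windows of III and II were below 0 throughout, apart from the highest of II.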
